A study of Mus musculus with 202 samples.

Results

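The Obox genes are a family of homeobox genes expressed in mouse oocytes. The 5 members described are Obox1, Obox2, Obox3, Obox5 and Obox6, taken by their symbols from a count table of 23995 gene symbols, in which each had a line. Their levels were measured in single metaphase II (MII) oocytes, eggs arrested in meiosis until fertilisation, by Smart-seq2, a full-length method for polyadenylated RNA of single cells that carries no molecular identifiers. Of 202 libraries, each from 1 oocyte of a C57Bl/6J mouse, the 157 with at least 100000 gene counts and 4000 genes were used. A level is given in CPM, the counts of a gene scaled to a common total of gene counts per oocyte, and so is a share of the RNA sequenced. The amount of RNA per oocyte was not measured.

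Oocytes came from the first to the third generation (F1, F2 and F3) after F0 females that differed in diet and hormone, and the series title names prenatal androgen exposure. The F0 diet was high in fat and sugar (HFHS) or a control diet (CD), and the F0 hormone treatment was dihydrotestosterone (DHT), an androgen, or vehicle (Veh). Kept oocytes numbered 13 of F1 HFHS+DHT, 14 of F1 HFHS+Veh, 8 of F1 CD+DHT and 10 of F1 CD+Veh. In F2 they were 5 of HFHS+DHT, 20 of HFHS+Veh from 4 animals, 25 of CD+DHT from 5 animals and 16 of CD+Veh from 4 animals. In F3 they were 13 of HFHS+Veh from 2 animals, 13 of CD+DHT and 20 of CD+Veh. Groups follow the sample titles, and the characteristics of 36 of the 202 samples contradict their titles. All 15 F1 HFHS+Veh and all 5 F2 HFHS+DHT samples name the other hormone treatment. Another 8 F2 HFHS+Veh and 8 F3 HFHS+Veh samples name the other of those generations. The animals of F2 and of F3 HFHS+Veh were read from the numbers in the titles.

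Obox proteins bind DNA through a homeodomain and are stored by the egg as RNA and protein for the embryo. In mouse, Obox1, Obox2, Obox5 and Obox7 are known as maternal members, whereas Obox3 is known as a member switched on when the embryo starts its own transcription. Loss of several members together is known to impair that start, called zygotic genome activation. Obox6 is known for promoting reprogramming of mouse fibroblasts to pluripotent cells.

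The RefSeq table of the mm10 assembly (GRCm38) lists 53 Obox genes, 51 of them on chromosome 7 and 2 pseudogenes on chromosome 17. Of the 53, 6 are protein-coding, and each had a line in the counts. The other 47 are pseudogenes, and 0 of them had a line of their own. Obox7 is the coding gene outside the 5 members; its line carries the symbol Gm4745, a synonym in the RefSeq table, and its values are given for comparison. The coding genes lie at chr7:14659708-14665996 (Obox7), chr7:15388851-15398545 (Obox2), chr7:15547257-15556846 (Obox1), chr7:15625306-15639777 (Obox3), chr7:15750370-15759274 (Obox5) and chr7:15833250-15839679 (Obox6).

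The members are close copies, which bears on how reads could be told apart. The stretches shown first are the bases of Obox1 that code for the third helix of the homeodomain, with the aligned bases of other genes. That helix lies in the major groove of DNA. The stretches are from the GENCODE vM21 transcripts on GRCm38, 5′ to 3′, with capitals at bases that differ from Obox1.
Obox1: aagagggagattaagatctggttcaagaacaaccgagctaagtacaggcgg
Obox2: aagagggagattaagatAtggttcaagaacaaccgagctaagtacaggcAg
Obox5: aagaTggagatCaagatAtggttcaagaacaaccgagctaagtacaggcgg
Obox7: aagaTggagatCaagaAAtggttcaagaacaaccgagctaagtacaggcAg
Obox3: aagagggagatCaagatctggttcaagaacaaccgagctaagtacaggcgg
Obox6: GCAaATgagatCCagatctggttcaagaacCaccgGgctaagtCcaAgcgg
Against Obox1, Obox3 differed at 1 of these 51 bases, Obox2 at 2, Obox5 at 3, Obox7 at 5 and Obox6 at 11. Over whole transcripts Obox1 and Obox2 were 99.2% identical across 1459 aligned bases, and Obox5 and Obox2 were 92.0% identical across 1280. Obox6 was the most distant member, with 75.9% to 78.7% identity to the other 5 genes.

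Obox1 and Obox2 also differ in how they are annotated. The 45 bases of Obox1 and the 44 bases of Obox2 printed next come from the homeobox just before the third helix, and the transcript of Obox2 lacks 1 base there.
Obox1: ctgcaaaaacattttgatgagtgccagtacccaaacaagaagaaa
Obox2: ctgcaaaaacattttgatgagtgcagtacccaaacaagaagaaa
The annotated coding sequence, stop codon included, is 456 bases in Obox2, against 615 in Obox1, 657 in Obox7, 876 in Obox5, 1008 in Obox3 and 1044 in Obox6. The W-F-x-N-x-R residues that mark the third helix were found in the annotated frames of the other 5 genes and not in that of Obox2.

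A read of 50 bases would match 1 member alone at 37.0% of the positions of the Obox2 transcript and 40.7% of those of Obox1. The share was 87.0% for Obox5, 79.8% for Obox7, 59.4% for Obox3 and 94.98% for Obox6. Of the 50-base words of Obox2, 60.1% also occur in Obox1. The sources used here give neither the read length nor the counting program, nor its use of reads with several matches. The division of counts between Obox1 and Obox2 is therefore uncertain. Their sum is less exposed only if reads matching both were counted, and would be too low if such reads were dropped. Which of these applies was not tested. Obox5, with 87.0% of its positions unique, is less exposed either way. The levels and ranks of Obox1 and Obox2, and their order against Obox5, depend on how such reads were used.

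Obox2, Obox5 and Obox1 were among the most abundant transcripts of the MII oocyte. Over the 157 oocytes the median level of Obox2 was 2669 CPM, that of Obox5 was 2391 CPM and that of Obox1 was 1271 CPM. By mean CPM they ranked 43, 48 and 96 among the 23995 symbols. Obox2, Obox5 and Obox1 together made up a median of 0.633% of the gene counts of an oocyte. Per length, in the authors' RPKM (reads scaled by gene length and depth), the order of the medians was the same, with 2019 for Obox2, 1823 for Obox5 and 1048 for Obox1. Obox7 had a median of 342 CPM, or 272 RPKM.

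Obox3 and Obox6 were at or near 0. Obox3 had 30 counts in all, spread over 17 of the 157 oocytes. Of these, 11 counts came from oocyte 3 of F2 CD+Veh animal 14. Pooled over all kept oocytes its level was 0.0629 CPM, with an exact Poisson 95% upper bound of 0.0898 CPM. Obox6 had 56 counts in 22 oocytes, 28 of them from oocyte 3 of F2 CD+Veh animal 3, and a pooled level of 0.117 CPM with an upper bound of 0.152 CPM. Intervals here treat each read as independent and leave out the spread between oocytes. PCR copies are not independent molecules, so these bounds are too narrow. Among the 6 coding Obox genes, nearly all counts were those of the members known as maternal. The 47 pseudogenes had no line of their own, so their RNA was not measured.

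The libraries carried oocyte RNA, with 1 exception. All 12 oocyte markers, among them zona pellucida genes, had medians over 10 CPM. In the library named F3 CD+Veh oocyte 21 the 12 oocyte markers summed to 239 CPM, against at least 7429 CPM in each of the others. Its 30 cumulus and granulosa markers, genes of the somatic cells around the egg, summed to 65976 CPM, and 14.33% of its counts were spike-in RNA. The summed Obox level of that library was 58.1 CPM, and medians and spreads of F3 CD+Veh are given with and without it. Over the kept oocytes the cumulus list had a median sum of 1259 CPM, 23 of the 30 markers had a median of 0, and the gene counts of a library ran from 133654 to 16359078.

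The levels of each group are described from the highest pooled level to the lowest, where pooled means summed counts over summed totals. Obox2 was highest in F1 HFHS+DHT, at 3068 CPM, followed by F2 HFHS+DHT at 3040 CPM and F1 HFHS+Veh at 2718 CPM. It was lowest in F3 CD+DHT at 1804 CPM, below F3 CD+Veh at 1925 CPM and F3 HFHS+Veh at 2297 CPM, and the highest group was 1.70-fold above the lowest. Obox1 had the same group at each end, with 1493 CPM in F1 HFHS+DHT and 871 CPM in F3 CD+DHT, a 1.71-fold range. Obox5 was highest in F2 HFHS+DHT at 2900 CPM and lowest in F3 CD+DHT at 1648 CPM, a 1.76-fold range. For Obox1, Obox2 and Obox5 alike the 3 lowest of the 11 groups were the F3 groups. Neighbouring groups in each order were close, and the ranges of their oocytes overlapped.

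**Figure D1:**
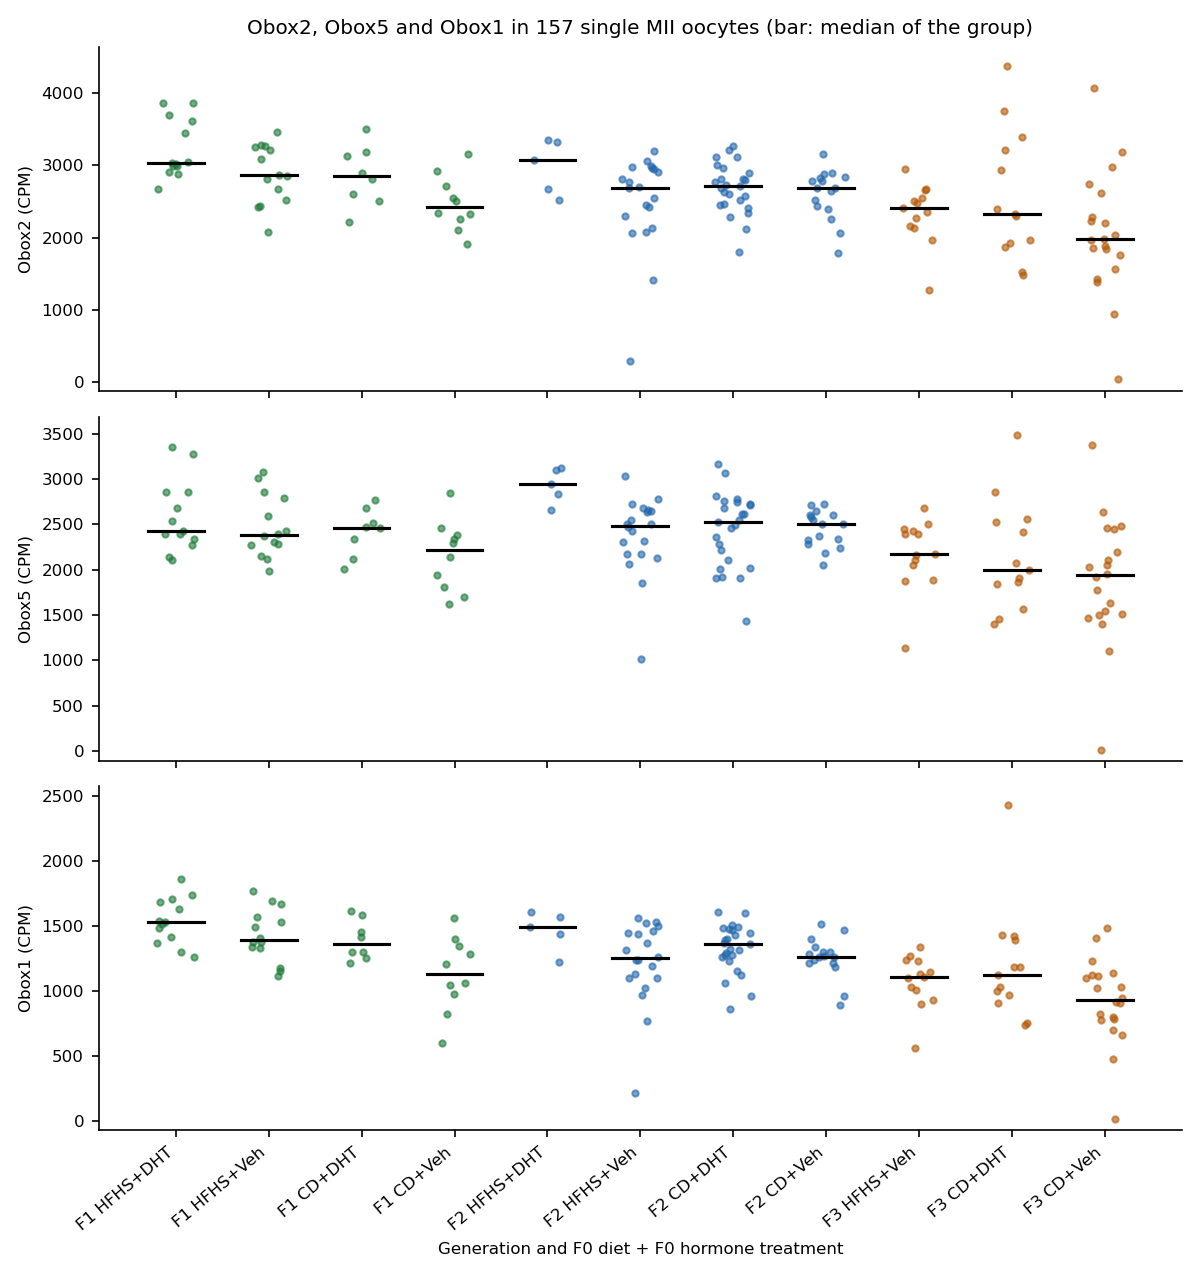
CPM of Obox2, Obox5 and Obox1 (vertical axes) in each of 157 oocytes (points), by group, with the group median as a bar and colours for F1, F2 and F3. The F3 groups have the lowest medians for Obox2, from 1978 CPM in F3 CD+Veh to 2404 CPM in F3 HFHS+Veh, and the point near 0 is F3 CD+Veh oocyte 21.

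The spread of Obox2 between oocytes was wider in F3 than in F1. The SD of log2(CPM + 1) of Obox2 over oocytes of a group was 0.18 to 0.22 in the 4 F1 groups. In F2 it was 0.19 in HFHS+DHT, 0.20 in CD+DHT and 0.21 in CD+Veh, and 0.76 in HFHS+Veh, or 0.28 there without 1 oocyte described further on. In F3 it was 0.30 in HFHS+Veh, 0.49 in CD+DHT and 1.41 in CD+Veh, or 0.48 there without oocyte 21. Obox1 was an exception, with an SD of 0.41 in F1 CD+Veh, against 0.32 in F3 HFHS+Veh and 0.40 in F3 CD+Veh without oocyte 21. The F3 CD+DHT oocytes ran from 1483 to 4379 CPM of Obox2, whereas those of F1 CD+DHT ran from 2216 to 3503 CPM. No test of generations was made, since most groups name no animal and generations were not compared by the design.

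In F2 the animals served as replicates, with their oocytes added up. The labels do not say how many litters or F0 females they descend from. Obox2 was at 2626, 2295, 2709 and 2924 CPM in the 4 HFHS+Veh animals and at 2750, 2651, 2663, 2429 and 2823 CPM in the 5 CD+DHT animals, against 2617, 2177, 2829 and 2648 CPM in the 4 CD+Veh animals. The groups overlapped throughout, and the lowest animal was a CD+Veh one. Obox5 was at 2487, 2460, 2212 and 2585 CPM in the HFHS+Veh animals and at 2874, 2666, 2183, 1941 and 2654 CPM in CD+DHT, against 2414, 2288, 2556 and 2523 CPM in CD+Veh. The CD+DHT animals held both the highest and the lowest Obox5 level of the 13. Obox1 was at 1343, 1218, 1161 and 1488 CPM in the HFHS+Veh animals and at 1369, 1300, 1254, 1271 and 1484 CPM in CD+DHT, against 1249, 1063, 1367 and 1275 CPM in CD+Veh. Here too the ranges overlapped.

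**Figure D2:**
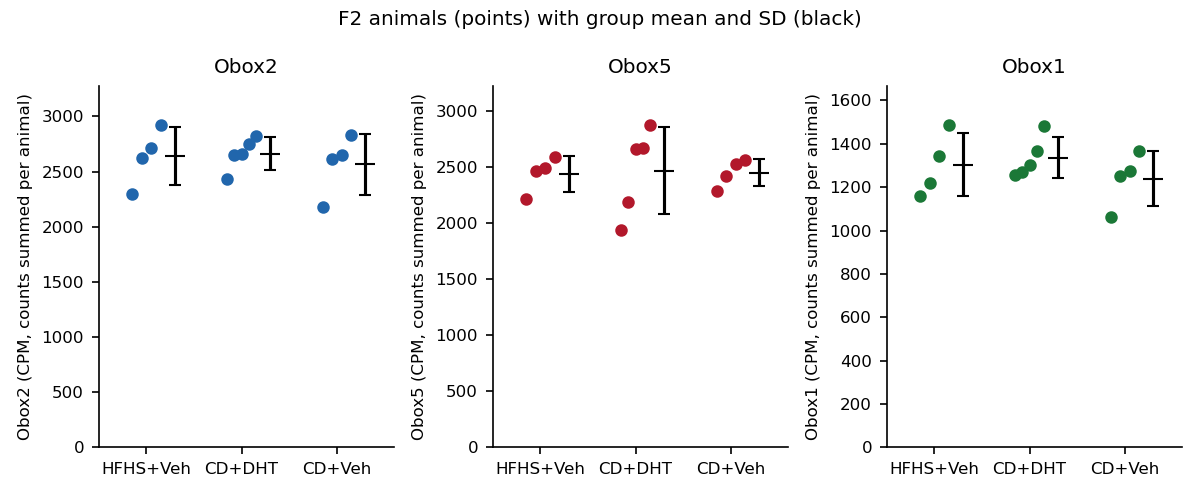
CPM of Obox2, Obox5 and Obox1 from counts summed per F2 animal (points; vertical axes start at 0), with the mean and SD of each group in black. The 3 groups overlap for each gene, with Obox2 means of 2639 CPM in HFHS+Veh, 2663 CPM in CD+DHT and 2568 CPM in CD+Veh.

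The comparison of F2 CD+DHT with CD+Veh asks whether DHT treatment of the F0 female altered oocyte RNA in the granddaughters. Of 5 members, 3 passed the filter on low counts and 0 were called at an adjusted p under 0.05 (edgeR quasi-likelihood test, Benjamini-Hochberg over 11962 genes); the share of all genes called was 0%. Mean levels were 2663 ± 148 CPM in CD+DHT and 2568 ± 277 CPM in CD+Veh for Obox2, and 1336 ± 93.8 CPM in CD+DHT and 1239 ± 128 CPM in CD+Veh for Obox1 (SD, n = 5 and 4 animals). The log2 fold change was 0.16 ± 0.21 (SE) for Obox2, 0.12 ± 0.18 for Obox5 and 0.22 ± 0.20 for Obox1, each with an adjusted p of 0.9999 in edgeR. The 95% interval of Obox1 ran from -0.20 to 0.65, that of Obox2 from -0.28 to 0.61 and that of Obox5 from -0.27 to 0.50. A 1.5-fold rise (0.58 on the log2 scale) lies inside the intervals of Obox1 and Obox2 and outside that of Obox5. An exact two-sided permutation test over animals, run on the mean of log2(CPM + 1) over the oocytes of each animal, gave p = 0.397 for Obox2, 0.857 for Obox5 and 0.190 for Obox1 without adjustment, where the smallest possible p is 0.0159. Without CD+Veh animal 3, whose TMM scaling factor of 1.34 was the highest, the Obox2 change was 0.01 and that of Obox5 was -0.01.

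The comparison of F2 HFHS+Veh with CD+Veh asks the same of the F0 diet. Again 0 of the 3 tested members were called, beside 0% of 11962 genes in edgeR. Obox2 averaged 2639 ± 261 CPM in HFHS+Veh animals, against 2568 ± 277 CPM in CD+Veh animals, and Obox1 averaged 1303 ± 145 CPM in HFHS+Veh animals, against 1239 ± 128 CPM in CD+Veh animals (SD, n = 4 each). The log2 fold change was 0.08 ± 0.22 (SE) for Obox2, 0.03 ± 0.19 for Obox5 and 0.10 ± 0.21 for Obox1, each with an adjusted p of 0.99997 in edgeR. The 95% intervals ran from -0.39 to 0.55 for Obox2, from -0.37 to 0.44 for Obox5 and from -0.34 to 0.55 for Obox1. On the animals' means over oocytes, where the Obox2 difference was -0.15, opposite in sign to the edgeR value, the exact permutation p was 0.571 for Obox2, 0.514 for Obox5 and 0.543 for Obox1, with 0.0286 as the smallest possible p. Without the 8 oocytes whose characteristics name F3, the 3 changes were -0.12, -0.06 and -0.02 in the same order.

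At an unadjusted p under 0.05 edgeR held 220 genes for CD+DHT and 118 for HFHS+Veh, and DESeq2 called 2 genes in each comparison, neither a member. In CPM without the TMM factors, Obox1, Obox2 and Obox5 varied less between animals of a group than the median gene. The SD of log2 CPM within groups was 0.13 for Obox2, 0.16 for Obox5 and 0.14 for Obox1, against a median of 0.35 over the 125 genes with a mean above 1000 CPM and 0.55 over all 11962 tested genes. The edgeR fit did use those factors, which ran from 0.77 in CD+DHT animal 9 to 1.34 in CD+Veh animal 3. The spread after that scaling was not computed.

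Obox3 and Obox6 were below the filter in F2. Obox3 had 6 counts in HFHS+Veh and 4 in CD+DHT, against 12 in CD+Veh, of which 11 were in 1 oocyte. Obox6 had 5 counts in HFHS+Veh and 9 in CD+DHT, against 35 in CD+Veh, of which 28 were in 1 oocyte. Its pooled level was 0.0580 CPM in HFHS+Veh, next to 0.0928 CPM in CD+DHT, against 0.520 CPM in CD+Veh. A count of Obox6 was seen in 5 of 20 HFHS+Veh and 3 of 25 CD+DHT oocytes, against 7 of 16 CD+Veh oocytes. With the oocytes of an animal added up, Obox6 was at 0, 0.0533, 0.0681 and 0.0832 CPM in the HFHS+Veh animals, against 0.302, 1.14, 0.0997 and 0.0839 CPM in the CD+Veh animals. These levels did not overlap, but the nearest of them rest on 3 counts in HFHS+Veh and 1 count in CD+Veh. On the summed levels, a quantity added after seeing the data, the exact two-sided permutation p was 0.0286 for HFHS+Veh, the smallest possible, and 0.127 for CD+DHT. Adjusted by Benjamini-Hochberg over 10 tests (5 members in both comparisons) these became 0.286 and 0.635, so neither difference passed. On the animals' means over oocytes, which overlapped, the exact permutation p for Obox6 was 0.143 for HFHS+Veh and 0.222 for CD+DHT without adjustment.

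In F1 no animal is named, so each group was 1 sample of oocytes and no test was made. Ratios of pooled CPM are given, and a member counts as past the threshold at 1.5-fold. In F1 CD+DHT the oocytes ran from 2216 to 3503 CPM of Obox2 with a median of 2849, against 1915 to 3165 CPM with a median of 2423 in F1 CD+Veh. The pooled levels were 2710 CPM in CD+DHT and 2713 CPM in CD+Veh, whereas the log2 ratio of medians was 0.23. A single library contributed 41.5% of the pooled total in CD+DHT, and another 34.7% in CD+Veh. Obox1 had medians of 1358 CPM in CD+DHT and 1132 CPM in CD+Veh, with log2 ratios of 0.01 pooled and 0.26 for the medians. Obox5 had medians of 2463 CPM in CD+DHT and 2222 CPM in CD+Veh, with ratios of 0.05 and 0.15. The groups overlapped for each gene, and 0 of the 3 members were past 1.5-fold, beside 15.4% of 7186 genes.

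The F1 HFHS groups, like F1 CD+DHT, had higher medians of all 3 genes than F1 CD+Veh, with ranges that overlapped. In F1 HFHS+DHT Obox2 ran from 2680 to 3866 CPM with a median of 3029, against 1915 to 3165 CPM with a median of 2423 in F1 CD+Veh, and the log2 ratio of pooled levels was 0.18. Obox5 had a pooled ratio of 0.17, with a median of 2431 CPM in HFHS+DHT and 2222 CPM in CD+Veh. Obox1 had medians of 1532 CPM in HFHS+DHT and 1132 CPM in CD+Veh, with log2 ratios of 0.15 pooled and 0.44 for the medians. Against F1 CD+Veh, 0 of 3 members were past 1.5-fold in F1 HFHS+DHT, beside 17% of 7173 genes.

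In F1 HFHS+Veh, where the labels disagree on the hormone, the medians were 2863 CPM of Obox2, 2386 CPM of Obox5 and 1395 CPM of Obox1. The pooled log2 ratios to F1 CD+Veh were 0.0029 for Obox2, 0.14 for Obox5 and 0.04 for Obox1, and those of medians were 0.24, 0.10 and 0.30. Here 0 of 3 members were past 1.5-fold, beside 11.1% of 7280 genes. F1 HFHS+DHT over F1 HFHS+Veh gave 0.17 for Obox2, 0.03 for Obox5 and 0.11 for Obox1, with 0 of 3 past 1.5-fold in either direction, beside 3.48% of 7302 genes above and 10% below. The 3 comparisons with F1 CD+Veh share its 10 oocytes.

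Obox3 and Obox6 gave no fold in F1. Both had 0 counts in F1 CD+DHT and in F1 CD+Veh, where a count of 0 allows up to 0.380 CPM in CD+DHT and up to 0.136 CPM in CD+Veh (3 counts over the summed total). Obox3 had 1 count in F1 HFHS+DHT and 2 in F1 HFHS+Veh, and Obox6 had 1 in each.

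In F3 the same questions apply to great-granddaughters of the F0 females, again without a test. Obox2 in F3 CD+DHT ran from 1483 to 4379 CPM with a median of 2331, against 32.3 to 4076 CPM with a median of 1978 in F3 CD+Veh, or 935 to 4076 CPM with a median of 1986 without oocyte 21. The pooled levels were 1804 CPM in CD+DHT and 1925 CPM in CD+Veh, a log2 ratio of -0.09, while the ratio of medians was 0.24, the opposite direction. In CD+DHT 34.2% of the pooled counts came from 1 library. For Obox5 the pooled ratio was -0.14 and that of medians 0.05, and for Obox1 they were -0.03 and 0.27. F3 CD+DHT had 0 of 3 members past 1.5-fold, beside 30% of 6957 genes.

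Pooled and median levels of each of the 3 genes were higher in F3 HFHS+Veh than in F3 CD+Veh. The HFHS+Veh libraries were shallower, with a median of 585662 gene counts and 7127 genes, against 2616470 gene counts and 8225 genes in CD+Veh. The part of this difference in the ratios was not tested. Obox2 ran from 1273 to 2954 CPM with a median of 2404 in HFHS+Veh, against a median of 1978 CPM in CD+Veh, or 1986 CPM without oocyte 21, and the pooled log2 ratio was 0.25. Obox5 had medians of 2173 CPM in HFHS+Veh, against 1939 CPM in CD+Veh, or 1957 CPM without oocyte 21, with a pooled ratio of 0.22. Obox1 had medians of 1105 CPM in HFHS+Veh, against 929 CPM in CD+Veh, or 943 CPM without oocyte 21, with a pooled ratio of 0.26. The 13 HFHS+Veh oocytes came from 2 of the 3 animals their titles name, 5 from animal 22 and 8 from animal 26, while 0 of the 8 oocytes of animal 25 were kept. Pooled per animal, Obox2 was at 2269 CPM in animal 22 and 2331 CPM in animal 26, Obox5 at 2031 and 2224 CPM, and Obox1 at 1099 and 1035 CPM in the same order. The CD+Veh titles name no animal, so no test over animals could be made. Leaving out 1 oocyte at a time kept the Obox2 ratio between 0.16 and 0.33. Still 0 of 3 were past 1.5-fold, beside 30% of 6718 genes. Both F3 comparisons share the 20 CD+Veh oocytes, and the 8 F3 HFHS+Veh samples that name F2 in their characteristics are those of animal 22. In F3, Obox3 had 1 count in HFHS+Veh and 1 in CD+DHT, against 3 in CD+Veh, and Obox6 had 0 in HFHS+Veh and 2 in CD+DHT, against 2 in CD+Veh.

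**Figure D3:**
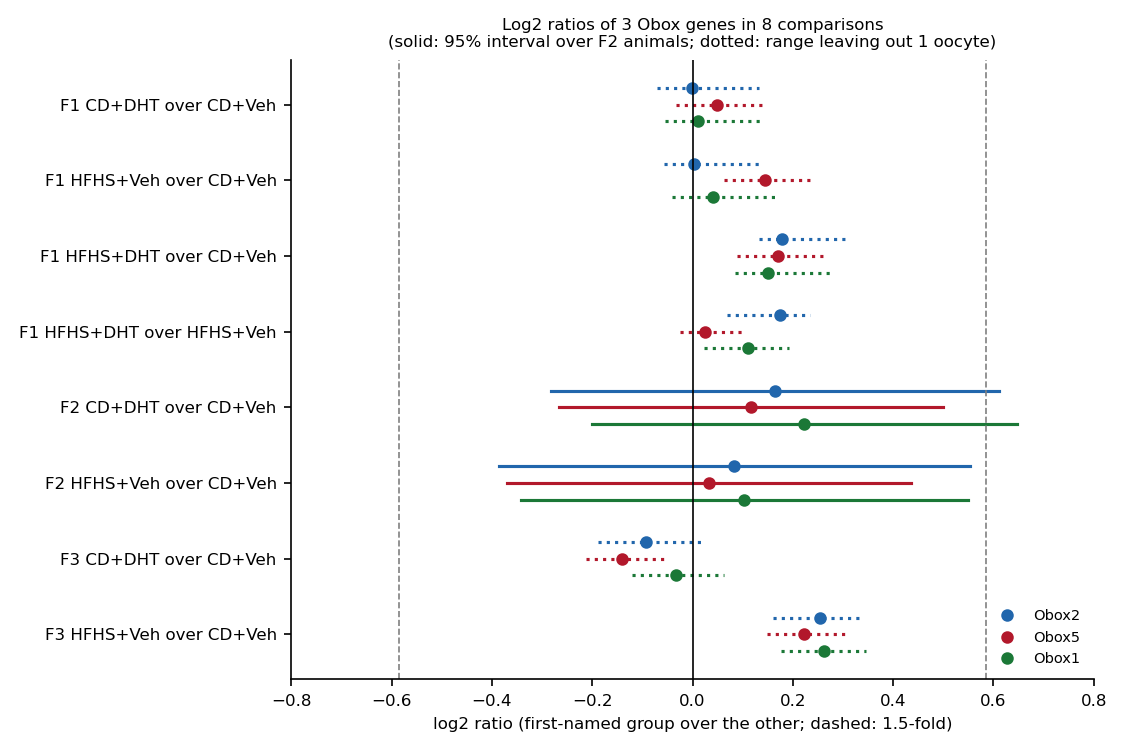
Log2 ratio (horizontal axis; first-named group over the other) of Obox2, Obox5 and Obox1 in 8 comparisons, with the 95% edgeR interval over animals for F2 (solid) and the range after leaving out any 1 oocyte for F1 and F3 (dotted). All points lie between -0.14 and 0.26, inside the dashed lines at 1.5-fold.

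F2 HFHS+DHT has 5 oocytes of no named animal, and their characteristics name the other hormone treatment, so it was not compared with F2 CD+Veh. Obox2 was at 3346, 2679, 3325, 3080 and 2520 CPM in them, Obox5 at 2834, 2947, 3126, 3103 and 2658 CPM and Obox1 at 1494, 1441, 1611, 1573 and 1221 CPM. These 5 oocytes had the lowest spread of Obox5 of any group, with an SD of 0.10 on the log2 scale.

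The 3 abundant members moved together from oocyte to oocyte. With group means subtracted, and without F3 CD+Veh oocyte 21, Pearson's r on log2(CPM + 1) over 156 oocytes was 0.91 between Obox1 and Obox2, 0.78 between Obox5 and Obox2, and 0.76 between Obox5 and Obox1 (Spearman's rho 0.83, 0.70 and 0.70). Obox1 and Obox2 share most of their sequence, as printed above, and all members share library and depth, so these values are descriptions. Obox7 followed less closely, with r of 0.66 to Obox2 and to Obox5 and 0.57 to Obox1. The coupling of Obox5 and Obox2 was 0.54 over 45 F1 oocytes, 0.76 over 66 F2 oocytes and 0.91 over 45 F3 oocytes (Spearman's rho 0.59, 0.53 and 0.89). The ratio of Obox1 to Obox2 had a median of 0.489 and that of Obox5 to Obox2 a median of 0.897.

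A library that broke this pattern was oocyte 2 of F2 HFHS+Veh animal 4. It had 285 CPM of Obox2 and 217 CPM of Obox1, the lowest of any oocyte but F3 CD+Veh oocyte 21, and 1017 CPM of Obox5. Its ratio of Obox5 to Obox2 was 3.57. It had 424872 gene counts, 5624 genes and 3.46% spike-in counts, and its oocyte markers summed to 8217 CPM. Leaving it out changed the F2 HFHS+Veh log2 fold of Obox2 to 0.09. In F1 CD+Veh, oocyte 8 had an Obox1 to Obox2 ratio of 0.266, the lowest of all, and a cumulus marker sum of 24.1 CPM, the lowest of all.

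**Figure D4:**
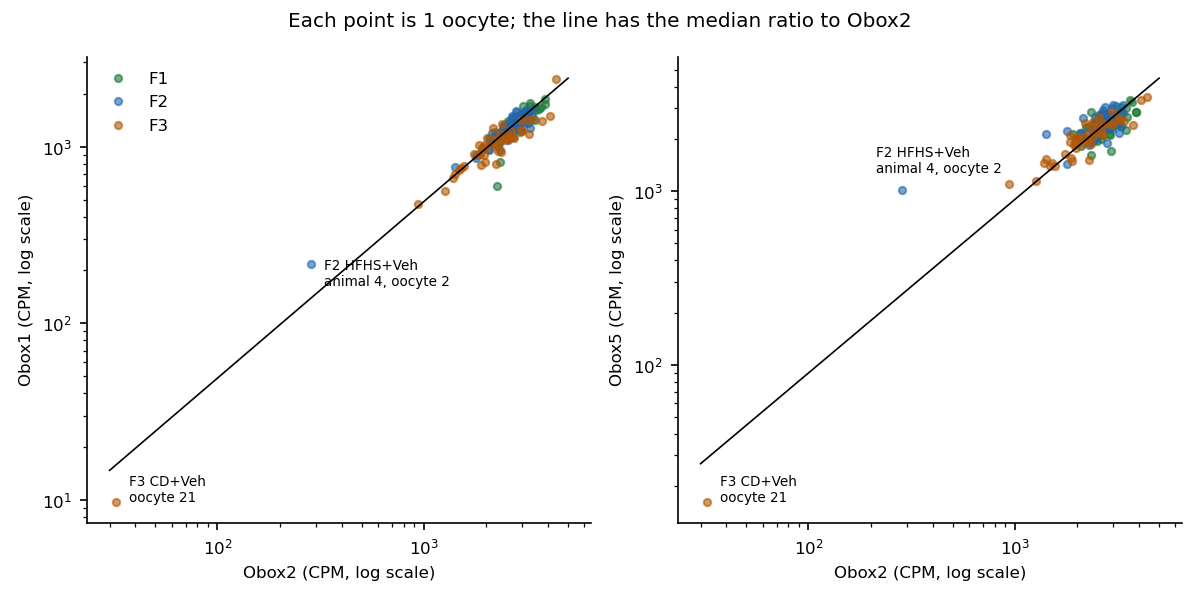
Obox1 (left) and Obox5 (right) against Obox2, in CPM on log axes, 1 point per oocyte coloured by generation, with a line at the median ratio (0.489 and 0.897). Most oocytes lie along the line, and F2 HFHS+Veh animal 4 oocyte 2 lies above it, most clearly for Obox5.

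In F2 the variance of log2(CPM + 1) could be divided between animals of a group and oocytes of an animal. Without the oocyte just described, the SD between oocytes of an animal was 0.22 for Obox2, 0.15 for Obox5 and 0.23 for Obox1. The SD between animals was 0.08, 0.15 and 0.04 in the same order. Animals carried 48.8% of the Obox5 variance, 12.7% of that of Obox2 and 2.81% of that of Obox1. With that oocyte the shares were 27.8% for Obox5, 3.88% for Obox2 and 0% for Obox1, and the SD between oocytes was 0.23 for Obox5, 0.46 for Obox2 and 0.40 for Obox1.

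In F3 the summed Obox level was lower in oocytes with more genes detected. With group means subtracted, r between the log2 sum and the number of genes was -0.70 over 45 F3 oocytes (rho -0.65), against -0.19 over 45 F1 oocytes and 0.35 over 66 F2 oocytes (rho 0.19). Within F3 it was -0.44 over 13 HFHS+Veh oocytes, -0.84 over 13 CD+DHT oocytes and -0.66 over 19 CD+Veh oocytes. With log10 gene counts of the library r was -0.59 in F3, -0.13 in F1 and 0.39 in F2. In F3 the Obox share was lower in deeper libraries, and the part of depth in the F3 ratios was not tested. The F3 CD+DHT library with the highest sum, 1.03% of gene counts, had 205518 gene counts and 5616 genes.

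**Figure D5:**
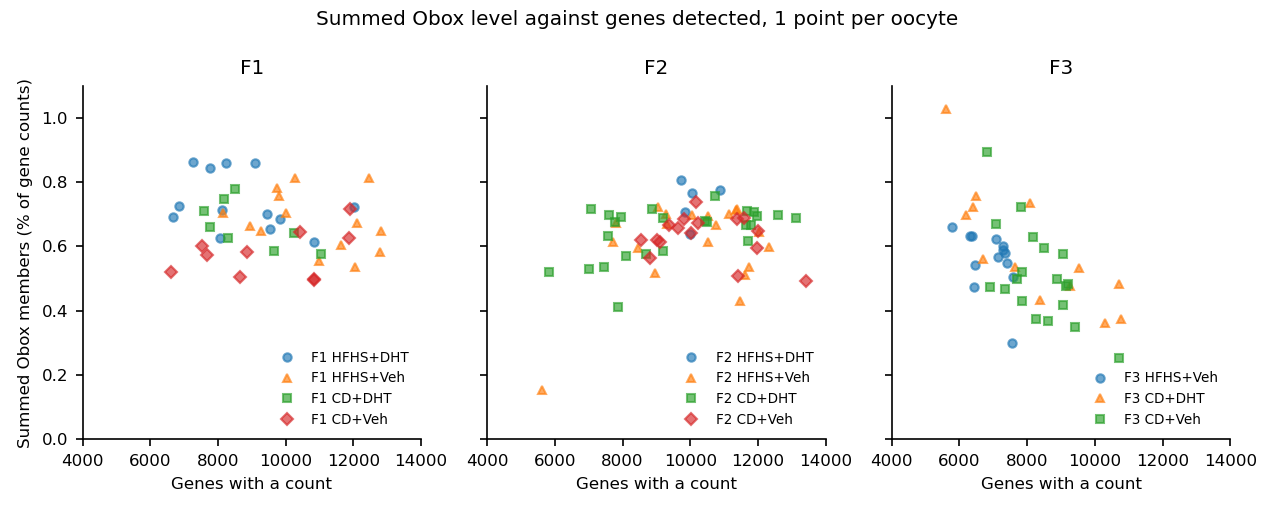
Summed level of Obox2, Obox5 and Obox1 in percent of gene counts (vertical) against genes with a count (horizontal), 1 point per oocyte in F1, F2 and F3, without F3 CD+Veh oocyte 21. The F3 points slope down (r of -0.70 after subtracting group means), while r was -0.19 in F1 and 0.35 in F2.

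Genes with the most similar pattern were searched among candidates averaging 20 CPM or more. Over all 157 oocytes the 5 closest to the summed Obox level were Nup37 (r of 0.92), E330034G19Rik (0.92), Orc6 (0.90), Pcna (0.89) and Nup35 (0.89), but these values rest on F3 CD+Veh oocyte 21, in which oocyte genes were low together. Without it the closest were Prdx1, a peroxiredoxin (0.80), Gmnn, the replication inhibitor geminin (0.77), Gtf2a2, a subunit of the general factor TFIIA (0.74), Med10, a Mediator subunit (0.74) and E330034G19Rik (0.73), of 4538 candidates with a median r of 0.03. Spearman's rho was lower, at 0.56, 0.55, 0.54, 0.54 and 0.52 in the same order. F2 HFHS+Veh animal 4 oocyte 2, described above, was still among these 156 oocytes. For single members the first was Gmnn for Obox2 (0.81) and Obox1 (0.78) and Prdx1 for Obox5 (0.69). The lowest were Mapre2 (-0.47), Svip (-0.44) and Nsd1, a histone methyltransferase (-0.44). Within F3 alone Mphosph6 came first (0.92 over 45 oocytes), within F2 Oosp3, an oocyte-secreted protein (0.88 over 66, rho 0.66), and within F1 Orc6 (0.65 over 45, rho 0.61).

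Other factors of genome activation were present in the same eggs. Of 26 listed, all 26 had a line, 14 averaged 20 CPM or more and 7 had a median of 0. Dppa3, a maternal protector of methylation, had a median of 3555 CPM, Klf17, a Krüppel-like factor, 449 CPM and Nfya, a subunit of NF-Y, 191 CPM. In F2, 0 of 21 tested factors were called in either direction against CD+Veh, with a median log2 fold of -0.01 in CD+DHT and 0.09 in HFHS+Veh, beside -0.01 and 0.02 over all genes tested. The largest in CD+DHT were Smarca4 (-0.44 ± 0.51, SE), Nfyb (0.32 ± 0.25) and Zfp57 (-0.21 ± 0.17). In the F1 comparisons with CD+Veh, of 19 factors 1 was past 1.5-fold above and 2 below in CD+DHT, and 0 above and 2 below in both HFHS+DHT and HFHS+Veh. Over all genes 15.4% were past 1.5-fold in either direction in CD+DHT, 17% in HFHS+DHT and 11.1% in HFHS+Veh. In F3 CD+DHT 2 of 17 were above and 1 below, beside 30% of genes in either direction. In F3 HFHS+Veh, 1 of 16 factors was past 1.5-fold above CD+Veh and 6 were past it below, beside 10% of genes above and 19.9% below. Of these 7, 4 remained past without the largest CD+Veh library: Nfyb above and Gabpa, Hsf1 and Zar1 below. Zar1, a maternal RNA-binding factor, was at 34.3 CPM in HFHS+Veh, against 76.2 CPM in CD+Veh.

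Genes first transcribed in the 2-cell embryo, the stage at which Obox3 is known to act, were nearly silent. Of 27 listed, 22 had a line and 19 of those had a median of 0, with Tcstv1 (93.3 CPM), Sp110 (49.5 CPM) and Tcstv3 (14.7 CPM) above it. In F2, 0 of 4 tested were called in either comparison, and 0 of 3 were past 1.5-fold in the F1 and F3 comparisons with all kept oocytes. Sp110 was past it above CD+Veh in F3 CD+DHT once the largest CD+DHT library was left out, beside 29.7% of genes in either direction. It was past it below CD+Veh in F1 HFHS+DHT once the largest F1 CD+Veh library was left out, beside 21.4%.

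Other homeobox genes gave a separate view of the class. Of 29 listed, all 29 had a line and 15 had a median of 0. Meis2, a TALE homeobox gene, had a median of 1718 CPM, Satb1 249 CPM, Pou2f1 89.99 CPM and Nobox 54.0 CPM. In F2, 0 of 19 tested were called in either comparison. Nobox, an oocyte homeobox factor needed for follicle growth, had pooled levels of 56.1 CPM in F2 CD+DHT and 59.5 CPM in F2 HFHS+Veh, against 85.2 CPM in F2 CD+Veh. Its edgeR log2 fold was -0.62 ± 0.31 (SE) in CD+DHT, with an adjusted p of 0.9999, and -0.44 ± 0.32 in HFHS+Veh, with an adjusted p of 0.99997. In F1 it was at 51.6 CPM in HFHS+DHT, 54.5 CPM in HFHS+Veh, and at 48.6 CPM in CD+DHT, against 89.8 CPM in CD+Veh. In F3 it was at 109 CPM in HFHS+Veh, next to 47.2 CPM in CD+DHT, against 122 CPM in CD+Veh. These comparisons share controls within a generation.

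Against F1 CD+Veh, 1 homeobox gene was past 1.5-fold above in each F1 group, with 2 of 12 below in CD+DHT, 2 of 15 in HFHS+Veh and 1 of 14 in HFHS+DHT. The share of all genes past it in either direction was 15.4% in CD+DHT, 11.1% in HFHS+Veh and 17% in HFHS+DHT. In F3 HFHS+Veh 0 of 10 were above and 2 below, Cux1 and Sebox, beside 10% of genes above and 19.9% below. In F3 CD+DHT 7 of 12 homeobox genes were past 1.5-fold above CD+Veh and 1, Nobox, past it below, beside 15.9% of genes above. The 7 were Cux1, Lhx8, Pbx3, Satb1, Sebox, Tgif2 and Zhx3, and the same 7 were past it without the largest CD+DHT library, as were 6 of them, all but Pbx3, without the largest CD+Veh library. Cux1 was at 115 CPM pooled in CD+DHT, with a median of 17.11 CPM over oocytes, against 30.3 CPM pooled in CD+Veh with a median of 9.56 CPM. Single oocytes reached 227 CPM in CD+DHT and 171 CPM in CD+Veh. The median log2 ratio was 0.73 over the 12 homeobox genes and 0.03 over all genes tested, while the pooled ratios of Obox2, Obox5 and Obox1 lay between -0.14 and -0.03. Their ratios of medians over oocytes had the opposite sign, at 0.24 for Obox2, 0.05 for Obox5 and 0.27 for Obox1.

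The promoters of the family also resemble each other. RefSeq promoter windows on GRCm38.p6, from 250 bases before to 50 after each annotated start, were found for Obox2, Obox5, Obox1, Obox3 and Obox7; Obox6 is named only. The longest run of bases shared by all 5 windows is 25 bases long and is shown because Obox3, near 0 here, carries it as well as the abundant members.
Shared block: GTGAGAATTAAGGATTTGAATATTG
It starts at -110 in Obox5 (chr7:15750260-15750284, plus strand), -98 in Obox1 (chr7:15547159-15547183, plus), -109 in Obox3 (chr7:15639862-15639886, minus), -84 in Obox7 (chr7:14659624-14659648, plus) and -1 in Obox2 (chr7:15388850-15388874, plus). In the Obox1 and Obox2 windows 203 aligned bases were 100% identical. Each of these blocks overlaps an exon of some GENCODE transcript, so the position of the starts is uncertain.

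At 79 bases past the start of the block, Obox5, Obox1, Obox3 and Obox7 hold TATATAA, a string chosen after the windows had been seen. It is shown in capitals with flanking bases.
Obox5: ccaagtttgcagagaTATATAAgggcaggt
Obox1: ccaagtttgcagagaTATATAAgggcaggt
Obox7: ccaagtttgcagagaTATATAAgggcaggt
Obox3: ccaagtttggagagaTATATAAgggcaggt
These lie at chr7:15750324-15750353, chr7:15547223-15547252, chr7:14659688-14659717 and, on the minus strand, chr7:15639793-15639822. TATATAA on either strand is in 3.24% of 32851 RefSeq windows of that length. The window of Obox2 ends before the matching position.

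Motifs of oocyte factors were searched on both strands. CANNTG, the E-box that FIGLA and other factors bind, was found in 4 of the 5 windows, all but Obox3, and in 72.3% of all windows. In Obox5, Obox1, Obox7 and Obox2 it lies 10 bases before and 25 bases after the start of the block. TAATTG and TAATTA, elements bound by NOBOX, were in 0 of 5 windows, against 7.9998% and 5.29% of all windows. TAATCC, bound by homeodomains with lysine at residue 50, was in 1 of 5 windows, that of Obox3, against 7.06% of all, and TATAAA was likewise in that of Obox3 alone, against 13.6% of all. A match is a description of these letters only, and neither a match nor its lack shows binding.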

How the data were processed

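The authors deposited raw counts per gene symbol and RPKM (scaled by gene length and depth) for 202 libraries. Per the submitters' processing notes, STAR 2.4.2a, Seurat 2.0 and mm10 were used. The sources used here give no counting program, annotation or strand setting. The 92 spike-in lines were left out, and 494 repeated symbol lines were summed. Oocytes needed 100000 gene counts and 4000 genes; 45 of 202 were left out. No 2 kept libraries of the same group agreed within sampling noise (smallest chi-square per degree of freedom 2.29). Pairs from different groups, and libraries left out, were not checked. F2 counts were summed per animal and 3 groups entered 1 edgeR 4.0.16 quasi-likelihood fit (TMM, filterByExpr, Benjamini-Hochberg adjusted p under 0.05), tested on simulated data. In F1 and F3 pooled CPM were compared without a test, over genes with at least 5 CPM. DESeq2 1.42.0, limma 3.58.1, other filters, and leaving out animals or oocytes were alternatives. Pseudocounts were 1 (CPM and RPKM). P-values measure the spread between these animals. The authors' log-scale expression tables were not used. Genes were named by likeness to the summed Obox level and from 3 lists, by largest change. The members and lists were chosen with earlier results of these data known.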

Additional observations from a re-analysis of the deposited data

Results flagged for a closer look

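Among 37 groups of values checked, 4 held a sample far from the rest. For continuous values the rule flags about 1 in 20 groups by chance. That rate does not hold for Obox3 and Obox6, whose counts are near 0. Where all other values are 0, any count is flagged. Obox3 was at 1.01 CPM in F2 CD+Veh animal 14, against 0 in the other 3 animals. Obox6 was at 0.321 CPM in F2 CD+DHT animal 6, against at most 0.0313 CPM in the other 4. Obox6 was at 0.374 CPM in F2 HFHS+DHT oocyte 3, which is 1 count, against 0 in the other 4 oocytes. Obox7 was at 631 CPM in F1 CD+Veh oocyte 7, against at most 353 CPM in the other 9.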

How the results depend on the processing

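The number of Obox members called or past 1.5-fold was 0 under each alternative run but 1. In F2 HFHS+Veh over CD+Veh the permutation test on counts summed per animal put 1 member, Obox6, under an unadjusted p of 0.05. Directions in F2 were less stable. For Obox5 in F2 CD+DHT over CD+Veh the log2 difference was -0.019 with limma on CPM and in the permutation test and -0.025 with limma on RPKM, and leaving out 1 animal gave -0.011 to 0.21. In the permutation test on summed counts the Obox5 difference was -0.0027 in CD+DHT and -0.0065 in HFHS+Veh over CD+Veh. In F2 HFHS+Veh over CD+Veh, limma on CPM and the permutation test gave -0.15 for Obox2, -0.059 for Obox5 and -0.10 for Obox1, and limma on RPKM gave -0.16, -0.062 and -0.11. Without the oocytes whose labels name another generation these were -0.12, -0.058 and -0.025. Leaving out 1 animal gave -0.076 to 0.21 for Obox2, -0.095 to 0.13 for Obox5 and -0.052 to 0.23 for Obox1, and without CD+Veh animal 3 the change was negative for each of them. The cause was not tested. The alternatives without F2 HFHS+Veh animal 4 oocyte 2, without F3 CD+Veh oocyte 21, and the permutation test on summed counts were chosen after seeing the data. Leaving out oocytes above the cumulus marker limit was not run in F2, where no kept oocyte is above it, nor in F1 CD+DHT and F1 HFHS+DHT over CD+Veh for the same reason. No paired analysis was possible because animal numbers are not shared between groups. In F1 and in F3 CD+DHT and CD+Veh no animal is named, so no test over animals was possible there.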
